A study of Mus musculus with 15 samples.

Results

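The 34 astrocyte genes described here are a list of genes known to mark or serve astrocytes, and the rule that names them uses no measured value. They were set beside all 21938 protein-coding genes of the mouse annotation (GENCODE M21, build GRCm38), of which they are a part. The list holds transporters and enzymes of glutamate handling (Slc1a2, Slc1a3, Glul, Slc7a10, Slc25a18), metabolic enzymes (Aldh1l1, Aldoc, Acsbg1, Cbs, Ppp1r3c), proteins of water and ion balance and of the end-foot (Aqp4, Slc4a4, Mlc1, Hepacam, Slc39a12), connexins (Gja1, Gjb6), the filament protein Gfap and the calcium-binding protein S100b. The remaining members are secreted and cell-surface proteins (Apoe, Clu, Cst3, Mfge8, Sparcl1, F3, Chrdl1, Btbd17, Itih3), receptor kinases (Fgfr3, Bmpr1b, Mertk) and transcription regulators (Id4, Hes5, Nfia).

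H3K4me3 was profiled by native ChIP-seq on nuclei of the amygdala of adult male mice, all of them F1 hybrids of 129S1/SvImJ and C57BL/6J. The genotypes were WT (n = 2), Kmt2a-HET, which has lost 1 copy of the H3K4 methyltransferase gene Kmt2a (n = 3), Kdm5c-KO, which lacks the X-linked H3K4 demethylase gene Kdm5c (n = 3), and DM, which carries both mutations (n = 3), with 1 input for each genotype. The values below come from the peak list of the WT mice, which is 1 list for both animals, and the other genotypes were not analysed here. The amygdala was not sorted by cell type, so the list is that of a tissue of mixed cells.

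Astrocytes take up the glutamate that neurons release, turn it into glutamine, buffer potassium and water at the end-feet that cover blood vessels, and pass ions and metabolites to each other through gap junctions. H3K4me3 is the trimethylated form of lysine 4 of histone H3, a mark that sits around the transcription start sites (TSSs) of active genes and also at CpG-rich promoters that are poised. In a tissue of mixed cells, a promoter that bears the mark in few cells and one that bears little of it in each cell give the same kind of signal and cannot be told apart.

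The list gave 24139 summits on chromosomes 1 to 19, X and Y, each a position of 1 base with a score. The score was read as −log10 of the q-value with which MACS2 set the ChIP signal against the input, so it rises with enrichment and also with depth. It ran from 1.18 to 341.7, with a median of 102.3. A summit within 1 kb of any annotated TSS of a gene was called a promoter summit, and one inside the gene but farther than that from every TSS of it a gene-body summit. With 1 list for all WT mice there was no spread between replicates, so no difference below was tested and intervals cover counting error only.

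Of the 34 astrocyte genes, 32 had a promoter summit (94.1%, 95% Wilson interval 80.9% to 98.4%), against 64.7% of all protein-coding genes. The members without one were Mlc1, which encodes a membrane protein of astrocyte contacts, and Hes5, a transcriptional repressor downstream of Notch. While nearly all members bore the mark, their scores were mostly lower than those of other marked genes. The median best promoter score of the 32 was 104.5 (quartiles 59.2 and 163.8), against 194.6 (quartiles 129.8 and 230.2) for the 14197 coding genes that were marked. Above that coding median lay Cst3, Glul, Clu and Id4 and no other member, with 2 of them (Cst3 and Glul) above the upper quartile of marked coding genes, and 19 of the 32 (59.4%) lay below the lower quartile. A best score at or above the median of the whole list was reached by 16 of the 34 members (47.1%), against 52% of coding genes, so the excess seen in the presence of a summit was not there at this level.

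**Figure D1:**
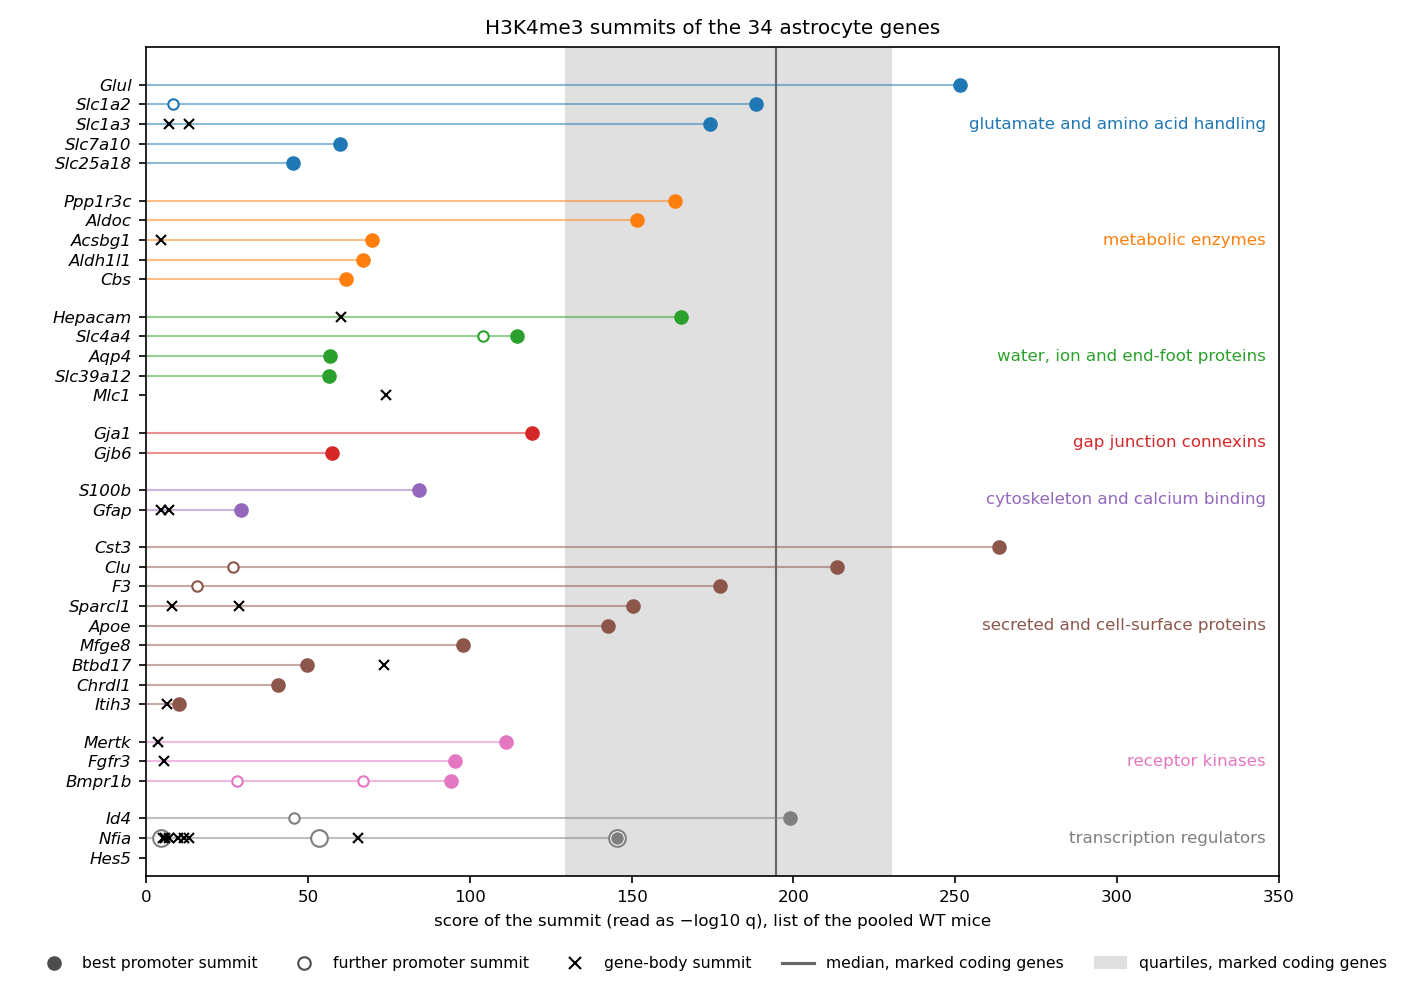
Scores of the summits of each astrocyte gene (x axis, read as −log10 q), with the genes grouped by role. Filled points are the best promoter summit, open points further promoter summits, crosses gene-body summits, and the grey band and line the quartiles and median of marked coding genes. Cst3 (263.4) and Glul (251.5) lie to the right of the band, Itih3 (10.2) is the lowest, and Mlc1 and Hes5 have no promoter summit.

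The sequence before the start site also differed widely. The 250 bases before the most upstream annotated start near the summit are printed for the 2 members with the highest scores, the member with the lowest and Hes5, which had no promoter summit, and for Gfap, the classic astrocyte marker, which was added after its values had been seen. They were read from the RefSeq assembly of build GRCm38, lie outside the annotated exons of the gene and run 5′ to 3′ toward the start, with CpG dinucleotides in capitals, since CpG content is the sequence feature that H3K4me3 is best known to follow.
Cst3 (chr2:148875693-148875942, minus strand): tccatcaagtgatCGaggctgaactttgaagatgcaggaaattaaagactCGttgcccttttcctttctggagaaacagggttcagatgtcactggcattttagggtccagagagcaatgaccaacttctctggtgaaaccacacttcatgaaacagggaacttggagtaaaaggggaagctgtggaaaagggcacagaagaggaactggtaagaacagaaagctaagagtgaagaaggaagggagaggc
Glul (chr1:153899679-153899928, plus strand): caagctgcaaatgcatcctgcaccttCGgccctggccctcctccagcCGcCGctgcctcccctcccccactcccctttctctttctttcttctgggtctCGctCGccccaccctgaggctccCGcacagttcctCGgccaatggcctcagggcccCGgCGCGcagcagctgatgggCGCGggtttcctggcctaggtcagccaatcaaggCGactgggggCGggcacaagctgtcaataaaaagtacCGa
Itih3 (chr14:30923761-30924010, minus strand): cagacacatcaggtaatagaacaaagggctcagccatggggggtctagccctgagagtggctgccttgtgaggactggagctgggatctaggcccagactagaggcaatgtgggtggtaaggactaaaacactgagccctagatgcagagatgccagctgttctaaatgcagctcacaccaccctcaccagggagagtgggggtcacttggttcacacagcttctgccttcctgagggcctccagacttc
Hes5 (chr4:154960673-154960922, plus strand): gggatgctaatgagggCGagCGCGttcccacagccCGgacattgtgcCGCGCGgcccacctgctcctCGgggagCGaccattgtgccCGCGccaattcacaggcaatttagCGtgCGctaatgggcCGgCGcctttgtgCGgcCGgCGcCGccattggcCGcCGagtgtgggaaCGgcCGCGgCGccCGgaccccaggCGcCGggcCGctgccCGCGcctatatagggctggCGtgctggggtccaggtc
Gfap (chr11:102897201-102897450, minus strand): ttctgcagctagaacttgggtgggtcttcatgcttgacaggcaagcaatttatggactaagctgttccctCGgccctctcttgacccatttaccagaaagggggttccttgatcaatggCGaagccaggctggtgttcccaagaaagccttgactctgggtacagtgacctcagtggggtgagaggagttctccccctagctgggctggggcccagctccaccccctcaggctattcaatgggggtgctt

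Hes5 held 32 CpGs in these 250 bases, more than 95.3% of coding genes held before their outermost start, yet no summit lay within 1 kb of it. Glul held 15 CpGs, more than 68.1% of coding genes. Cst3, with the highest score of all members, held 2, as did Gfap, whose score was 29.2, and the median of coding genes was 8. No CpG was present in the window of Itih3. In the printed windows, CpG count and score thus did not run in parallel among these 5 genes. The summits themselves lay on the other side of the start that follows each printed window. They lay 470 bases inside the gene from that window for Cst3, 439 for Glul, 332 for Gfap and 765 for Itih3. The CpG count also depended on the start taken. In the RefSeq promoter windows described below, whose start lies farther inside the gene for Cst3, Cst3 held 13 CpGs and Glul 17. Gfap and Itih3 held 3 each there and Hes5 41. With those windows the low-scoring Gfap and Itih3 held fewer than Cst3 and Glul, and Hes5 remained an exception.

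Among the glutamate genes, the scores were higher at the steps of uptake and conversion than at the others. Glul, which encodes glutamine synthetase, had 1 promoter summit with a score of 251.5 at chr1:153900368, higher than in 88.0% of marked coding genes. Slc1a2 and Slc1a3, the glial glutamate transporters GLT-1 and GLAST, scored 188.4 and 174.3. Their summits lay 117 and 82 bases downstream of the nearest TSS, an internal one in both, and 739 and 437 bases from the outermost. By contrast, the amino acid exchanger gene Slc7a10 scored 59.8 and the mitochondrial glutamate carrier gene Slc25a18 45.3, both below the lower quartile of marked coding genes. Slc1a2 had a further promoter summit of 8.38 at an internal TSS, and Slc1a3 had gene-body summits of 13.2 and 7.12, both in intron 2. The Glul summit lay 140 bases from a TSS of the neighbouring gene Teddm2 and 238 bases upstream of the nearest Glul TSS, an internal one, so it cannot be assigned to Glul alone.

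The members were also compared with the wider pathway. All 16 listed genes of the glutamate-glutamine cycle, which runs between astrocytes and neurons, had a promoter summit, with a median of 167.0, and for the 12 that are no members the median was 159.8. Glul had the highest score of the 16. In the Slc1a family, 6 of 7 genes had a promoter summit. Slc1a4, a neutral amino acid transporter gene, had the highest score of that family (238.1), and Slc1a7 had no promoter summit. Slc1a2 came next after Slc1a4.

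The metabolic enzymes fell into a high and a low set. Ppp1r3c, a targeting subunit of the phosphatase that acts on glycogen synthase, scored 163.4, and Aldoc, the brain aldolase, 151.7. The other members of this role lay close together at 69.7 for Acsbg1 (a very-long-chain acyl-CoA synthetase), 67.1 for Aldh1l1 (10-formyltetrahydrofolate dehydrogenase) and 61.8 for Cbs (cystathionine beta-synthase). Acsbg1 alone of these had a gene-body summit, of 4.69, in the first intron. Aldoa, the ubiquitous aldolase, scored 278.4, above Aldoc.

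The end-foot and ion genes were mostly weakly marked. Aqp4, the water channel of the end-foot, scored 56.8, and Slc39a12, a zinc transporter, 56.5. Hepacam, an adhesion protein that binds MLC1, scored 165.2 at its promoter and had a gene-body summit of 60.3 in exon 7, the last exon. Slc4a4, the sodium-bicarbonate cotransporter, had 2 promoters of about the same score, 114.6 and 104.0, at TSSs far apart in a gene of 352836 bases. The second summit of the other members with several, Nfia apart, scored 67.1 or less.

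Mlc1 had no promoter summit under the annotation used, but its nearest summit lay only just outside the limit. That summit, with a score of 74.0 at chr15:88977907, lay 1100 bases inside the gene from its only annotated TSS, in exon 2. It lay 646 bases from a start that RefSeq gives for this gene, so the gene counted as marked when RefSeq starts were added. Its score is then above those of Aqp4 and Slc39a12. Of the members with a promoter summit, the best summits farthest from a TSS were those of Sparcl1 at 719 bases and Id4 at 695.

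Among the 12 aquaporin genes, Aqp4 and Aqp11 had a promoter summit (56.8 and 218.1), and 10 had none. The dystrophin complex anchors AQP4 at the end-foot and is also made in other cells. All 12 genes listed for the complex and its partners (among them Kcnj10, Agrn and Lama2) had a promoter summit, with a median of 165.7. The highest score was that of Dtnb (222.8). A TSS of the antisense transcript AC133525.2 lay 313 bases from the Aqp4 summit.

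Both connexin genes were marked, Gja1 (connexin 43, the main astrocyte connexin) with 119.3 and Gjb6 (connexin 30) with 57.4. The Gja1 summit lay 191 bases downstream of the nearest TSS, and that of Gjb6, in intron 1, 428 bases upstream of an internal TSS and 1124 bases downstream of the outermost one. Over the connexin family, 12 of 20 genes had a promoter summit, with a median of 77.7 and the highest score at Gja5 (270.5), a connexin known from vessels and heart. Gfap scored 29.2 and S100b 84.3. The score of Gfap was higher than in 8.09% of marked coding genes. Of the 10 intermediate filament genes, 7 had a promoter summit, with a median of 173.8 and the highest score at the neurofilament gene Nefm (202.9). Des, Ina and Prph had none. Gfap also held gene-body summits of 7.09 in intron 5 and 4.56 in intron 3.

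Secreted and cell-surface proteins spanned the whole range of the members. Cst3 (cystatin C, a protease inhibitor) scored 263.4, higher than in 94.0% of marked coding genes, and Clu (clusterin, also called apolipoprotein J) 213.4. F3 (tissue factor), Sparcl1 (hevin, a synapse-organising protein) and Apoe (the main apolipoprotein of the brain) followed with 177.5, 150.3 and 142.6. Mfge8, a bridging protein for phagocytosis, scored 97.8. The lowest of this role were Btbd17 with 49.7, the BMP antagonist Chrdl1 with 40.7 and Itih3, a heavy chain of the inter-alpha-trypsin inhibitor, with 10.2. The best score of Itih3 was higher than in 3.34% of marked coding genes. Btbd17 was the only member whose gene-body summit (73.5, in exon 3, its last exon) scored above its promoter summit.

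Apoe and Clu carry lipids, and of the 18 listed lipoprotein and cholesterol genes 17 had a promoter summit, with a median of 234.2. Hmgcs1, an enzyme of cholesterol synthesis, had the highest score of these (286.2), and Lcat, which esterifies cholesterol on lipoproteins, had no promoter summit. Apoe lay below the lower quartile of that list (189.1). In the SPARC family all 8 genes had a promoter summit, with a median of 178.8, and Sparcl1 lay below it. The highest score there was that of Spock2 (262.2).

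The receptor kinases were close to each other, at 111.1 for Mertk, which clears dying cells and synapses by phagocytosis, 95.5 for Fgfr3, an FGF receptor, and 94.1 for Bmpr1b, a BMP type I receptor. None of the 3 had the highest score of its family. Fgfr1 scored 175.0, Bmpr1a 202.1 and Tyro3 170.7. All 5 FGF receptor genes and all 3 TAM receptor genes had a promoter summit, as did 6 of 7 BMP receptor genes. Bmpr2 was the exception, with its nearest summit at 1289 bases.

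**Figure D2:**
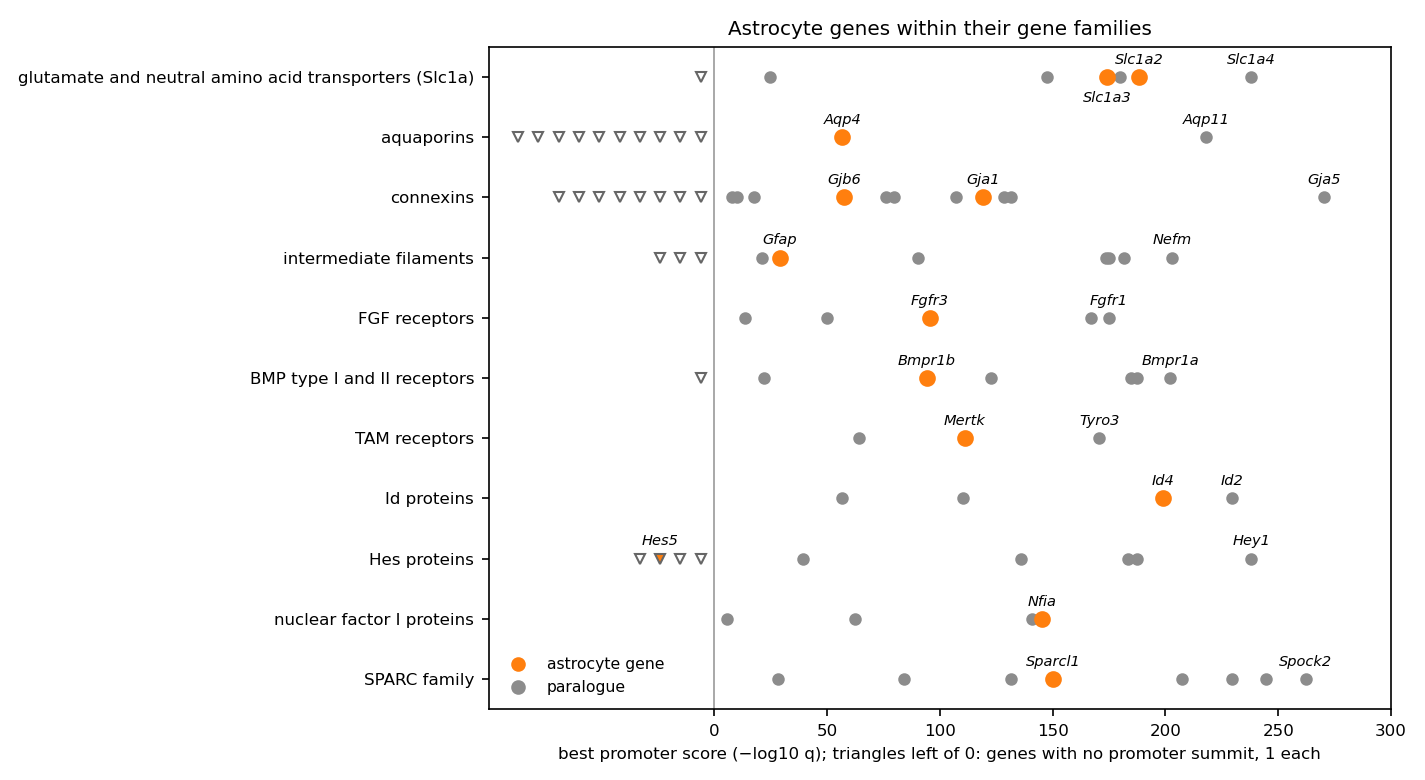
Best promoter scores (x axis, read as −log10 q) of 11 gene families that hold an astrocyte gene, 1 family per line. Orange points are astrocyte genes, grey points paralogues, and triangles left of 0 genes with no promoter summit. The astrocyte gene had the highest score of its family only for Nfia (145.4), and the aquaporins show the most genes without a summit.

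Of the transcription regulators, Id4, an inhibitor of basic helix-loop-helix factors, scored 199.1, with a further summit of 45.7 at 539 bases upstream of the TSS. Id4 followed Id2 (229.6) in a family in which all 4 genes were marked. The best Id4 summit lay 668 bases from a TSS of Gm49291 and 695 from its own. Nfia, a factor that drives the onset of gliogenesis, had the most summits of all members, with 4 at promoters and 7 in the gene body. Its best score of 145.4 occurred at 2 summits, 61 bases inside the gene from one TSS and 667 bases upstream of another, and the remaining promoter summits scored 53.5 and 4.65. Of its gene-body summits, 6 lay between 5.31 and 13.2, and the seventh, in intron 2, reached 65.5. In the nuclear factor I family all 4 genes were marked, and Nfia had the highest score by a narrow margin, the next being 140.7.

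Hes5 had a CpG-rich promoter, with a CpG ratio of 0.80 around its outermost TSS, and no promoter summit. Its nearest summit was at chr4:154964790 with a score of 207.7, 3819 bases from a Hes5 TSS and 657 bases from a TSS of its neighbour Pank4. Another summit of 45.7 lay 14562 bases upstream of Hes5. Among the 9 Hes genes, 5 had a promoter summit, with the highest score at Hey1 (238.1), and Hes2, Hes3, Hes5 and Hes7 had none.

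All 32 best promoter summits, as taken here, lay between the start and end of the gene, against 87.4% of those of marked coding genes. Of the 32, 27 were downstream and 5 upstream of the nearest TSS, near the background of 79.3% downstream, with a median offset of 186 bases (quartiles 98.5 and 346.3), against 171 bases (49 and 327) for marked coding genes. In the transcript with the longest coding sequence, 23 fell in the first intron and 7 in the first exon. The upstream ones were those of Glul, Gjb6, Fgfr3, Apoe and Cbs, at 238, 428, 105, 54 and 150 bases from an internal TSS, and all 5 lay downstream of the outermost one. Another gene had a TSS within 1 kb of the best summit for 6 members, Aqp4, Glul, Fgfr3, F3, Id4 and Nfia, whereas this held for 30.2% of marked coding genes. For Glul and Id4 the other gene was the nearer one.

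**Figure D3:**
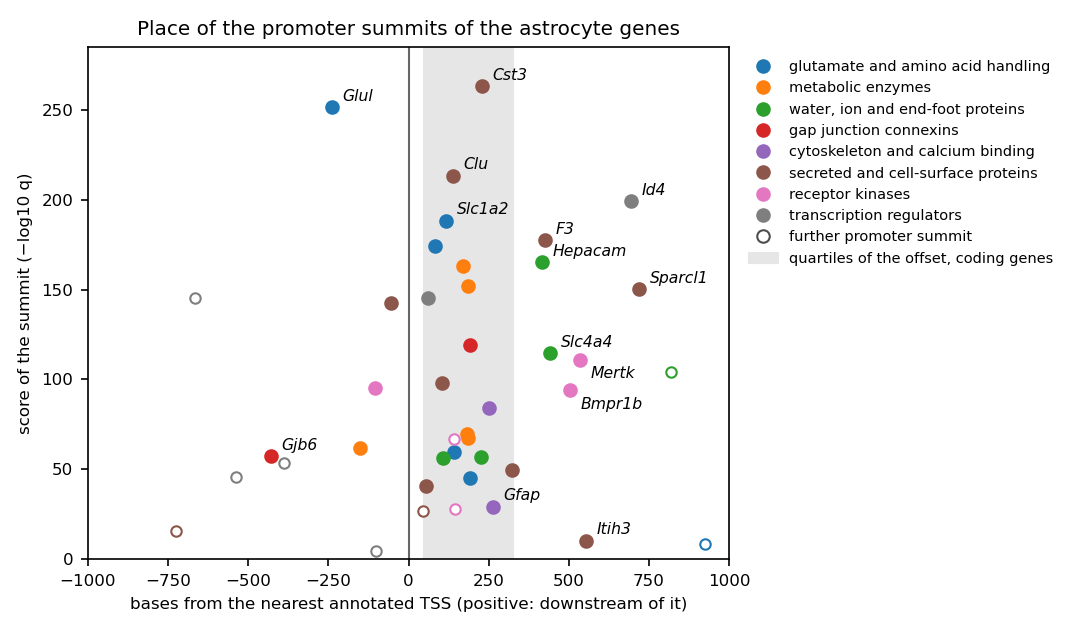
Promoter summits of the astrocyte genes by distance from the nearest annotated TSS (x axis, bases, positive downstream of that TSS) and score (y axis, read as −log10 q). Filled points are best summits, open points further ones, colours roles, and the grey band the quartiles of the offset for marked coding genes. Of the 32 best summits, 27 lie to the right of 0, and Glul has the highest score to the left.

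For several members the best summit lay near an internal start and more than 1 kb from the outermost one. More than 1 TSS was annotated for 29 of the 34 genes, with a median of 5 per member against 3 per coding gene. In 9 of the 32, the best summit lay more than 1 kb from the outermost TSS, against 14.3% of marked coding genes. They were Gfap, Aqp4, Aldh1l1, Gja1, Gjb6, Fgfr3, Sparcl1, Bmpr1b and Nfia. Nfia was counted only because the summit nearer to a TSS was taken where scores were tied, and its other summit of 145.4 lay 667 bases from the outermost TSS, which leaves 8. The distance was 64607 bases in Aldh1l1, 187665 in Bmpr1b, 8208 in Aqp4 and 4044 in Gfap, and between 1013 and 1303 bases in Gja1, Gjb6, Fgfr3 and Sparcl1. For the genes at 1013 to 1303 bases, the position alone does not show which start the mark belongs to. With the outermost TSS as the only one, 25 of 34 members (73.5%) counted as marked, against 58.2% of coding genes. Gfap, Aqp4, Aldh1l1, Gja1, Gjb6, Fgfr3 and Sparcl1 were then lost, while S100b, Slc1a2, Slc1a3, Glul, Aldoc and Apoe were among those kept. Bmpr1b kept a summit at its outermost TSS, of 67.1.

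At least 2 promoter summits were found for 7 members (20.6%), Slc1a2, Slc4a4, Clu, F3, Id4, Nfia and Bmpr1b, against 11.7% of coding genes. Only marked genes can have 2, and more of the members were marked. Among marked genes the counts were 7 of 32 members and 2569 of 14197 coding genes, which lie closer together. The share of all listed genes was 29.2% for neuronal and 22.7% for oligodendrocyte genes. It was also above that of the members for microglia genes, and slightly below it for endothelial and mural genes. The second summit scored 26.8 in Clu and 15.7 in F3. Bmpr1b had 3, of 94.1, 67.1 and 28.0. A gene-body summit was found for 11 members (32.4%), against 14.7% of coding genes. The share was larger for oligodendrocyte (68.2%), neuronal (66.7%) and endothelial and mural genes (36.0%), and smaller for microglia genes (28.0%). An excess over coding genes was thus not particular to astrocyte genes. Of the 20 gene-body summits of the members, 15 scored below 15, 17 lay in introns and 3 in exons. None of them reached the median score of the list (102.3), against 3.22% of coding genes with one that did. The summits above 15 were those of Btbd17 (73.5), Mlc1 (74.0), Nfia (65.5), Hepacam (60.3) and Sparcl1 (28.7). The Sparcl1 summit of 28.7 lay 36 bases from a TSS of Gm26703. In the 20 kb on either side of the gene, 6 members (Acsbg1, Btbd17, Hes5, Slc1a3, Slc7a10 and Sparcl1) had a further summit, near the background of 15.7% of coding genes, and the scores ran from 2.46 to 45.7.

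CpG content was then compared, as the ratio of observed to expected CpGs in the 500 bases on either side of the outermost TSS. The ratio was below 0.4 in 14 of 34 members (41.2%), close to the 40.04% of coding genes. In this CpG-poor class more of the members were marked than of coding genes. A promoter summit was found for 13 of the 14 (92.9%), against 23.7% of the 8785 coding genes of the class. The share was also high in this class for the lists of other cell types, so it was not particular to astrocyte genes. It was 80% for neuronal (4 of 5), 83.3% for oligodendrocyte (10 of 12), 95.5% for microglia (21 of 22) and 80% for endothelial and mural genes (12 of 15). The scores of the members went the other way, with a median of 67.1 for the members against 114.1. At a ratio of 0.4 or more, 19 of 20 members (95%) and 92.1% of coding genes had a promoter summit, with medians of 119.3 and 200.4. The members thus carried lower scores than the marked coding genes in both classes. The classes rest on the outermost TSS, whereas the summit may lie at another one. At the TSS nearest the best summit, the ratio was 0.402 for Gfap and 0.435 for Apoe, against 0.235 and 0.380 at the outermost. It was 0.272 for Gjb6 and 0.386 for Bmpr1b, against 0.475 and 0.831. The class of these genes thus depends on the TSS taken.

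**Figure D4:**
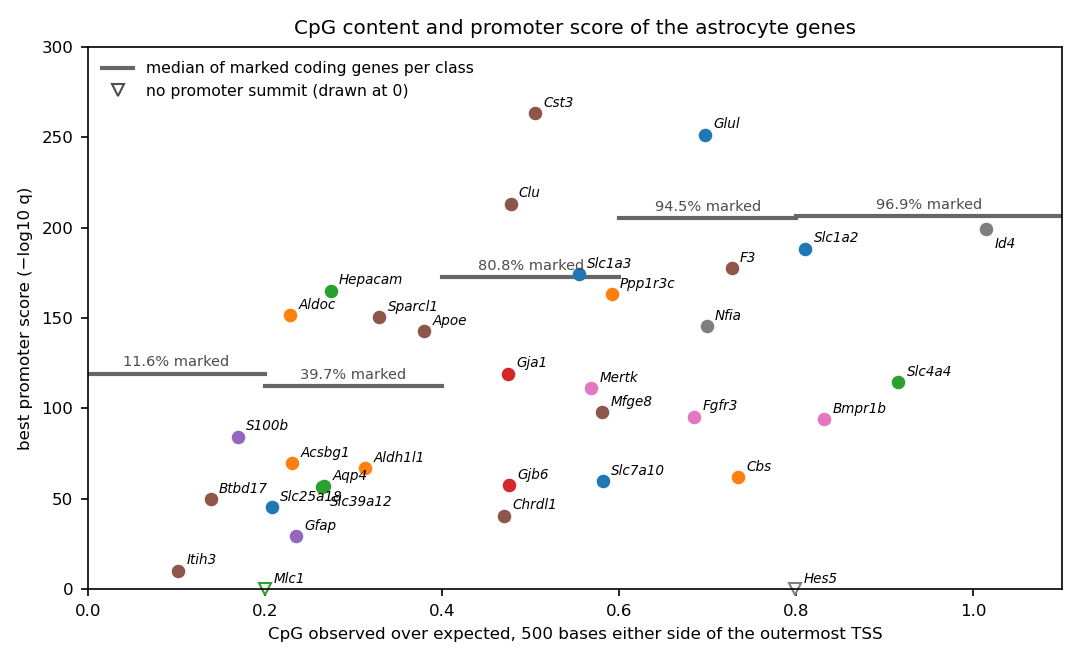
Best promoter score (y axis, read as −log10 q) against the CpG observed over expected ratio at the outermost TSS (x axis) for each astrocyte gene, coloured by role. Grey lines are the medians of marked coding genes in 5 classes of the ratio, with the share marked in each class, and triangles at 0 are Mlc1 and Hes5. Below 0.4, Hepacam, Aldoc, Sparcl1 and Apoe lie above the lines, and the other members of that range below them.

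Hepacam (ratio 0.27, score 165.2), Aldoc (0.23, 151.7), Sparcl1 (0.33, 150.3) and Apoe (0.38, 142.6) had the highest scores of the CpG-poor members. Of the members with a ratio of 0.4 or more at the outermost TSS, Chrdl1 (0.47, 40.7), Gjb6 (0.48, 57.4), Slc7a10 (0.58, 59.8) and Cbs (0.73, 61.8) had the lowest scores. In the 300-base promoter windows of RefSeq (250 bases before and 50 after a start, build GRCm38.p6), 30 members were found with 37 promoters. The TATA-box letters TATAAA, searched on both strands, occurred in those of Apoe, Bmpr1b, F3, Itih3, Slc1a3, Slc25a18 and Slc39a12 (18.9% of the 37, against 13.6% of 32851 RefSeq promoters). The letters TTCNNNGAA, the core that STAT factors are known to bind, occurred in Acsbg1, Aldoc, Gfap and Slc1a3 (10.8% against 8.30%). These shares are descriptions of letters in a window and not of binding.

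Genes that mark other cells of the tissue were counted in the same way. A promoter summit was found for 23 of 24 neuronal, 19 of 22 oligodendrocyte, 23 of 25 microglia, and 22 of 25 endothelial and mural genes, shares between 86.4% and 95.8% that the 94.1% of astrocyte genes lay among. The median scores were far apart, at 212.9 for neuronal, 99.0 for oligodendrocyte, 32.4 for endothelial and mural and 13.03 for microglia genes. The 104.5 of the astrocyte genes lay next to the oligodendrocyte genes and between the neuronal and the vascular ones. In the CpG-poor class alone the order was 205.6 for neuronal, 96.9 for oligodendrocyte, 67.1 for astrocyte, 16.4 for endothelial and mural and 12.96 for microglia genes. These medians rest on few marked genes, 4 neuronal, 10 oligodendrocyte, 13 astrocyte, 12 endothelial and mural and 21 microglia. The share of each cell type in the dissected tissue was not measured, and its part in these medians was not tested.

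**Figure D5:**
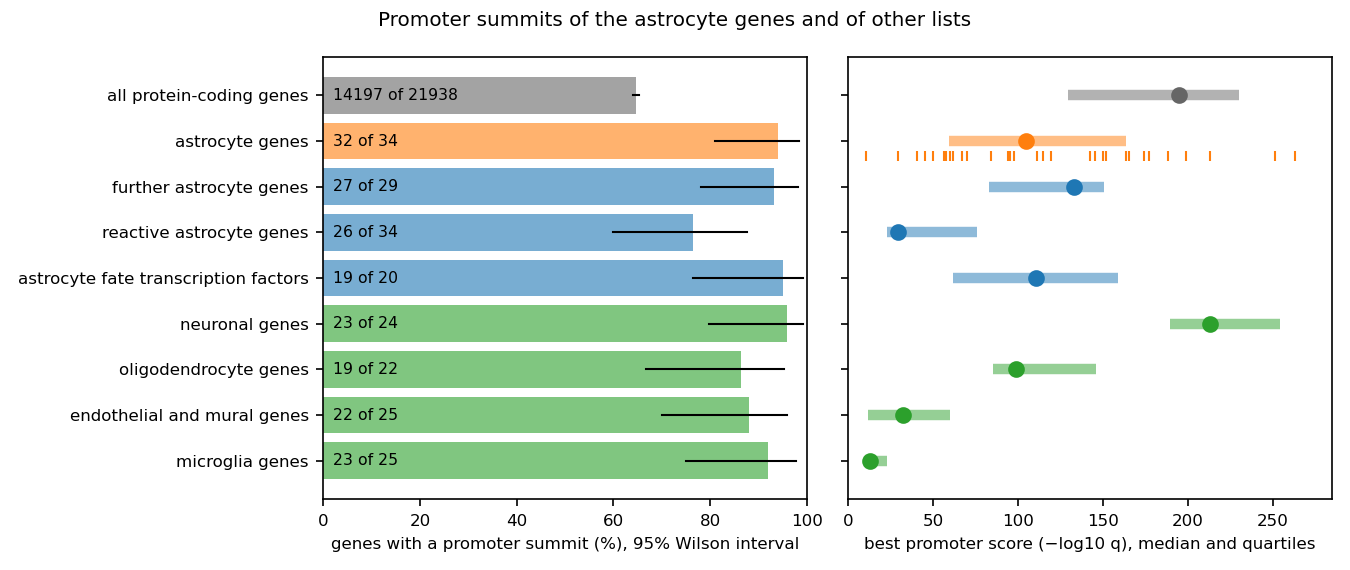
Left, share of genes with a promoter summit (x axis, %, with the 95% Wilson interval and the counts) and right, median (point) and quartiles (bar) of the best promoter score (x axis, read as −log10 q) for all protein-coding genes, the astrocyte genes and other lists. Ticks under the astrocyte bar are its 32 marked genes. The shares of the cell type lists lie between 86.4% and 95.8%, and the medians between 13.03 and 212.9.

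A further set of astrocyte genes, none of them members, had a promoter summit about as often as the members, for 27 of 29 (93.1%). Their median was higher, at 133.2 against 104.5 for the members. Ttyh1, which encodes a membrane protein of the tweety family, scored highest (243.8), and Fjx1 and Lcat had no promoter summit. Transcription factors of astrocyte fate had a summit in 19 of 20, with a median of 110.3 and the highest score at Stat3 (266.8). Genes that astrocytes induce when they become reactive had lower values, with a promoter summit for 26 of 34 (76.5%) and a median of 29.0. Lcn2 (lipocalin 2), C3 (complement C3) and Timp1 (an inhibitor of metalloproteases) had none, and the highest score was that of Amigo2 (161.6). Gfap, which also rises in reactive astrocytes, had a score of 29.2, near the median of that list and below all members but Itih3.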

How the data were processed

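H3K4me3 was measured in amygdala nuclei by ChIP-seq after digestion with micrococcal nuclease. Per the labels and the Methods, Bowtie was used by the authors for alignment to mm10, with unique reads kept, and MACS2 (2.1.0.20140616) for peak calling against input. The deposited WT list holds 1-base summits with a score, taken to be the −log10 q-value. The list itself names no scale and carries no read counts. Summits outside chromosomes 1 to 19, X and Y were left out (24139 of 24162 kept). Per-sample columns left unmatched numbered 0.

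Summits were assigned to GENCODE M21 TSSs with Python 3.11.15 and pandas 2.3.3, the highest within 1 kb of a TSS being the best. The assignment was tested on simulated summits. Background shares cover all protein-coding genes. All members are named. Of families and further lists, genes are named that had the highest score or no promoter summit, at most 4 each. Members and lists were chosen with earlier results of these data known. Other window sizes, start sites, score limits, joined summits, shared promoters and a CpG-limited background were tried. Some items are not reported here.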

Additional observations from a re-analysis of the deposited data

How the results depend on the processing

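The share of astrocyte genes with a promoter summit (94.1%) moved to 73.5% with the outermost TSS as the only one and to 47.1% when summits under the list's median score were dropped. Their median best promoter score (104.5) moved to 96.7 with a window of 500 bp, 97.8 with a window of 3 kb, 114.6 with the outermost TSS only, 164.3 without summits under the list's median score, 95.5 with summits closer to another gene's TSS left out, and 97.8 with RefSeq starts added, a setting chosen after seeing the data. It stayed below the median of coding genes, 189.1 to 209.6, in each of these. The 11 members with a gene-body summit (32.4%, against 14.7% of coding genes) became 7 with 3 kb (background 9.52%). They became 20 with the outermost TSS only (23.8%) and 6 with scores of at least 10 (9.29%). Without summits under the list's median score they became 0 (3.22%), a background too low for 0 of 34 to set the members apart. The share with a promoter summit there, 16 of 34, lay near its background (52.0%), and the gap was not tested. With a window of 500 bp the share was 82.4% (28 members), against 57.1% of coding genes, and 16 members had a gene-body summit (background 21.6%). In the settings not named here for them, the share ran from 91.2% to 97.1% and the gene-body count from 9 to 12. The median did not change in the settings not named for it. Against coding genes in the members' CpG range the share was 94.1% against 69.6%. Of single genes, Id4 fell to 45.7 and Glul lost its summit without shared promoters, Bmpr1b moved to 67.1 with 500 bp or the outermost TSS, and Mlc1 gained 74.0 with 3 kb or RefSeq starts.

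No paired analysis was possible because the list pools the WT mice and no result comes from a test, and for the same reason leaving out a replicate was not possible. The score cannot be tied to read counts, so a missing summit is a signal not called at this depth.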
